A study of Mus musculus with 7 samples.

Results

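The genes described here encode the protein components of the mitochondrial ribosome. They were chosen by name alone: every gene listed under a symbol made of Mrpl or Mrps and a number, with an optional letter a to c, was taken, and pseudogene symbols were left out. This rule gave 78 of the 55364 genes listed. By the structure of the mammalian particle, 51 of them belong to the large subunit and 26 to the small subunit. Mrps18a and Mrps30 carry small-subunit names and sit in the large subunit, and Mrps36, the remaining gene, encodes a component of the 2-oxoglutarate dehydrogenase complex of the citric acid cycle. The 5 mitoribosomal genes with other names (Dap3, Ptcd3, Chchd1, Aurkaip1 and Gadd45gip1) fall outside the rule and are given separately.

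RNA came from mini-oocytes, oocyte-like cells that form in a flat culture without somatic cells after mouse embryonic stem cells are made to express oocyte transcription factors. All cells descended from the female BVSC H18 line, a hybrid of 129 and C57BL6. In 4F-mini-oocytes the factors were Nobox, Figla, Tbpl2 and Lhx8, and 8F-mini-oocytes also received Stat3, Dynll1, Sub1 and Sohlh1. The 4F and 8F sets were carried by separate derived lines, and the 8F line also holds an Npm2-mCherry reporter. Line and factor set therefore cannot be told apart. The induction medium held SCF, Y-27632 and Shield-1, the ligand that stabilises the introduced factors, and Shield-1 was left out of fresh medium from day 12. Libraries of 3 groups were compared: 4F at day 7 (n = 2, pools of 1000 cells), 4F at day 21 (n = 3, pools of 10 cells) and 8F at day 21 (n = 2, pools of 10 cells). Day and number of pooled cells changed together and cannot be told apart. No source used here says whether the samples of a group came from separate inductions, so the p-values measure the spread between these samples, which may be technical.

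Mitochondria keep their own ribosome, related to that of bacteria. It translates the few messages of mitochondrial DNA, all of which encode subunits of the oxidative phosphorylation complexes. Its RNAs are transcribed inside the organelle, and every one of its proteins is encoded in the nucleus, made on cytosolic ribosomes and imported, so assembly draws on both genomes. During growth an oocyte multiplies its mitochondria and their DNA many times over and hands them to the embryo. The transcripts of mitochondrial DNA were not analysed here, so the values below concern the nuclear side of the machinery.

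Many genes for mitochondrial ribosomal proteins start in short, GC-rich promoters that share binding motifs of a few general factors, among them NRF1, a regulator of nuclear genes for mitochondrial proteins, the ETS factors and YY1. The start regions below are shown because these genes moved between groups and carry such letters, and were picked after the matches were seen. Each line gives the stretch from 100 bases before to 30 bases after the start annotated by RefSeq in GRCm38.p6, the assembly also called mm10, read 5′ to 3′ on the strand of the gene. Capitals mark the motifs, searched on both strands: GCATGCGC for NRF1, CCGGAAGT for ETS factors and AAGATGGCG for YY1.
Mrpl9 chr3:94443236-94443365 (plus strand): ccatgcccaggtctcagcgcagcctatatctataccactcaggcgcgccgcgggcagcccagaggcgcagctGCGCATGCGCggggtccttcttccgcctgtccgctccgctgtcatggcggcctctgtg
Mrpl22 chr11:58171564-58171693 (plus strand): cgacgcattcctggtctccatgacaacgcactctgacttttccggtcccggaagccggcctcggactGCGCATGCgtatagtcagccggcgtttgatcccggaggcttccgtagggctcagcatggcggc
Mrpl32 chr13:14613008-14613137 (minus strand): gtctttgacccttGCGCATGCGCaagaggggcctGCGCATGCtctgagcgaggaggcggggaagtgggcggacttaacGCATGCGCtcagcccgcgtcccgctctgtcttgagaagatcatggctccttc
Mrps22 chr9:98601650-98601779 (minus strand): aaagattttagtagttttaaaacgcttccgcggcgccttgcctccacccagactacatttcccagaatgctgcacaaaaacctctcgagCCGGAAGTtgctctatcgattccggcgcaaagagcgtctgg
Mrps27 chr13:99344686-99344815 (plus strand): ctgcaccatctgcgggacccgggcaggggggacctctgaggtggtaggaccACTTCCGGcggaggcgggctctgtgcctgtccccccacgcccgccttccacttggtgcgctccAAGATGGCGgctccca
Mrps18a chr17:46110904-46111033 (plus strand): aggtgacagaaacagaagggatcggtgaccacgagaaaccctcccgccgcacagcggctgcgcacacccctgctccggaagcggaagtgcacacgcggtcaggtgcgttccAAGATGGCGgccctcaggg
Mrpl36 chr13:73330909-73331038 (plus strand): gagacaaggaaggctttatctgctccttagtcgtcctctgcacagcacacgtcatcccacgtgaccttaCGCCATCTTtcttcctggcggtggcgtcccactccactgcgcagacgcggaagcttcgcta
Mrps36 chr13:100744630-100744759 (minus strand): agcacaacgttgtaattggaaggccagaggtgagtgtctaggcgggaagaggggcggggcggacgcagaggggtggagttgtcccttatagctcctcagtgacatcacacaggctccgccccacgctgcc
Mrpl9, Mrpl22 and Mrpl32 held the NRF1 letters, with overlapping copies in Mrpl9 and in Mrpl32. Mrps22 held the ETS letters, and Mrps27 held the letters of both an ETS site and a YY1 site. In Mrps18a the YY1 letters lay just after the start, and in Mrpl36 just before it, at a start that lies inside the longer gene model of GENCODE. The stretch of Mrps36 held none of the 3, and it is shown because its gene, too, moved between groups, as given below.

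Start windows of 300 bases, from 250 before to 50 after the start, were found for 69 of the 78 genes (75 windows, since some genes have several starts). The NRF1 letters occurred in 10.7% of these windows, against 3.52% of the 21263 windows of protein-coding genes. The ETS letters occurred in 16.0%, against 5.15%, and the YY1 letters in 10.7%, against 1.83%. At least 1 of the 3 was present in 34.7% of the windows (26 of 75), in 9.88% of those of protein-coding genes, and in 27.6% of the 76 windows of the genes for cytosolic ribosomal proteins. The letters of an Sp1 site (GGGGCGGG) were found in 30.7%, against 22.1%, those of a CRE (TGACGTCA) in 2.67%, against 2.23%, and those of a TATA box (TATAAA) in 6.67%, against 12.6%. The windows had a median GC content of 58.7%, against 56.3%. These are matches of letters, which do not show that a factor was bound.

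The genes also lay close to others. An opposite-strand protein-coding gene started within 1000 bases of 33 of the 78 (42.3%), compared with 2384 of 21951 protein-coding genes (10.9%). Mrpl46 and Mrps11 formed such a pair with each other, with starts 412 bases apart on chromosome 7. The genes were spread over 17 chromosomes, and 11 of them were on chromosome 11.

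**Figure D1:**
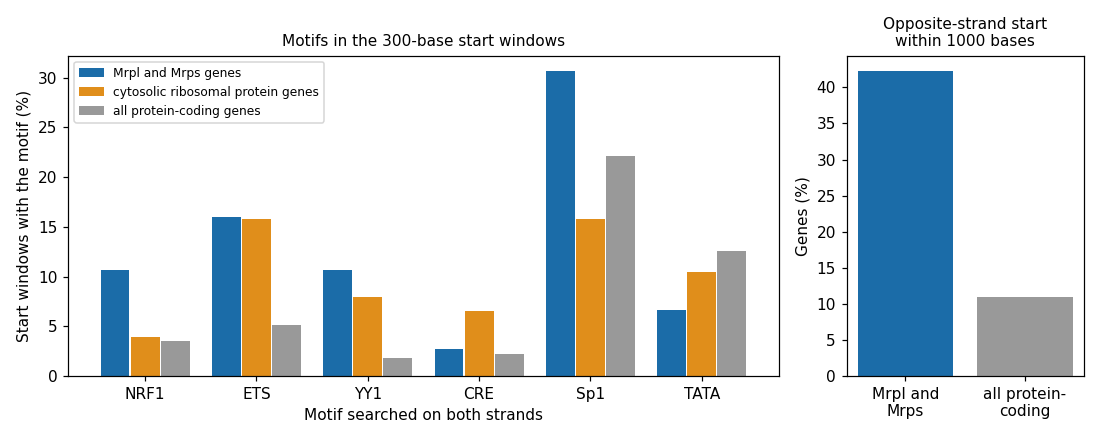
Left, share of 300-base start windows (percent) that hold each of 6 motifs, for Mrpl and Mrps genes, genes for cytosolic ribosomal proteins and all protein-coding genes; right, share of genes (percent) with an opposite-strand protein-coding start within 1000 bases. The NRF1, ETS and YY1 bars of Mrpl and Mrps genes stand at 10.7%, 16.0% and 10.7%, above the grey bars at 3.52%, 5.15% and 1.83%, and the opposite-strand share is 42.3% against 10.9%.

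All 78 genes were detected at 1 TPM or more in every library, so none was lost to the filter on low values. TPM divides a gene's exon reads by its exon length and brings each library to a common total. Levels of different genes can be compared as far as the annotated exons match the transcripts made. Low values changed in steps of a read, from which the libraries were estimated to hold 9051761 to 17190271 reads on genes. The median member was covered by 235 to 705 estimated reads per library, and the lowest value rested on 7, so members with few reads carry a wide counting error. At day 7 the 10 most abundant genes took 28.5% and 31.8% of all TPM, and at day 21 they took 10.2% to 14.0%. The labelled cell type was checked on 12 oocyte markers, all of which were detected in every library. Their summed level was 17248 and 19784 TPM at day 7 and 37161 to 51493 at day 21. Nobox and Figla among them are introduced factors whose transgene reads count too. Their detection is therefore no check of cell type, and their reads are part of these sums. The 8 granulosa markers summed to between 2.2 and 5.1 TPM, with 2 to 6 of the 8 at 0.

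Levels spanned a wide range, from the most abundant, Mrpl18, to Mrpl33. Mrpl18, a central protuberance protein whose bacterial counterpart binds the 5S RNA, averaged 271 TPM over the 7 libraries, followed by Mrps21 at 170.1, Mrps36 at 153 and Mrpl12 at 129.8. Mrpl33 averaged 3.62 TPM, Mrpl13 5.97, Mrps10 6.44 and Mrps34 8.93. The annotated exons of Mrpl33, Mrpl13 and Mrps10 total 7326, 7936 and 8079 bases, and those of Mrps34 2064. Those of Mrpl18, Mrps21, Mrps36 and Mrpl12 total 1398, 739, 1274 and 1532 bases. How far exon length shaped this order was not tested. Mrpl33 and Mrpl13 stayed under 10 TPM in every library, whereas 8 genes exceeded 100 TPM in every day 21 library. Most ribosomal proteins occur once in a particle, whereas the TPM values were far from equal. The SD of log2 TPM over the 78 genes was 1.03 and 1.08 at day 7, between 1.38 and 1.52 in 4F at day 21, and 1.29 and 1.32 in 8F.

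Mrpl15, a large-subunit protein with a bacterial counterpart, lay in the lower part of this range (chr1:4773206-4785739, minus strand). It was at 12.4 and 9.05 TPM at day 7, at 22.1, 20.04 and 13.5 TPM in 4F at day 21, and at 22.1 and 18.7 TPM in 8F. All day 21 libraries were above both day 7 libraries, by little in the lowest. The log2 fold change between days in 4F was 0.72 ± 0.28 (SE), which did not pass the threshold (adjusted p = 0.0812, limma with Benjamini-Hochberg adjustment), and 8F minus 4F was 0.15 ± 0.28 (95% interval -0.51 to 0.82).

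**Figure D2:**
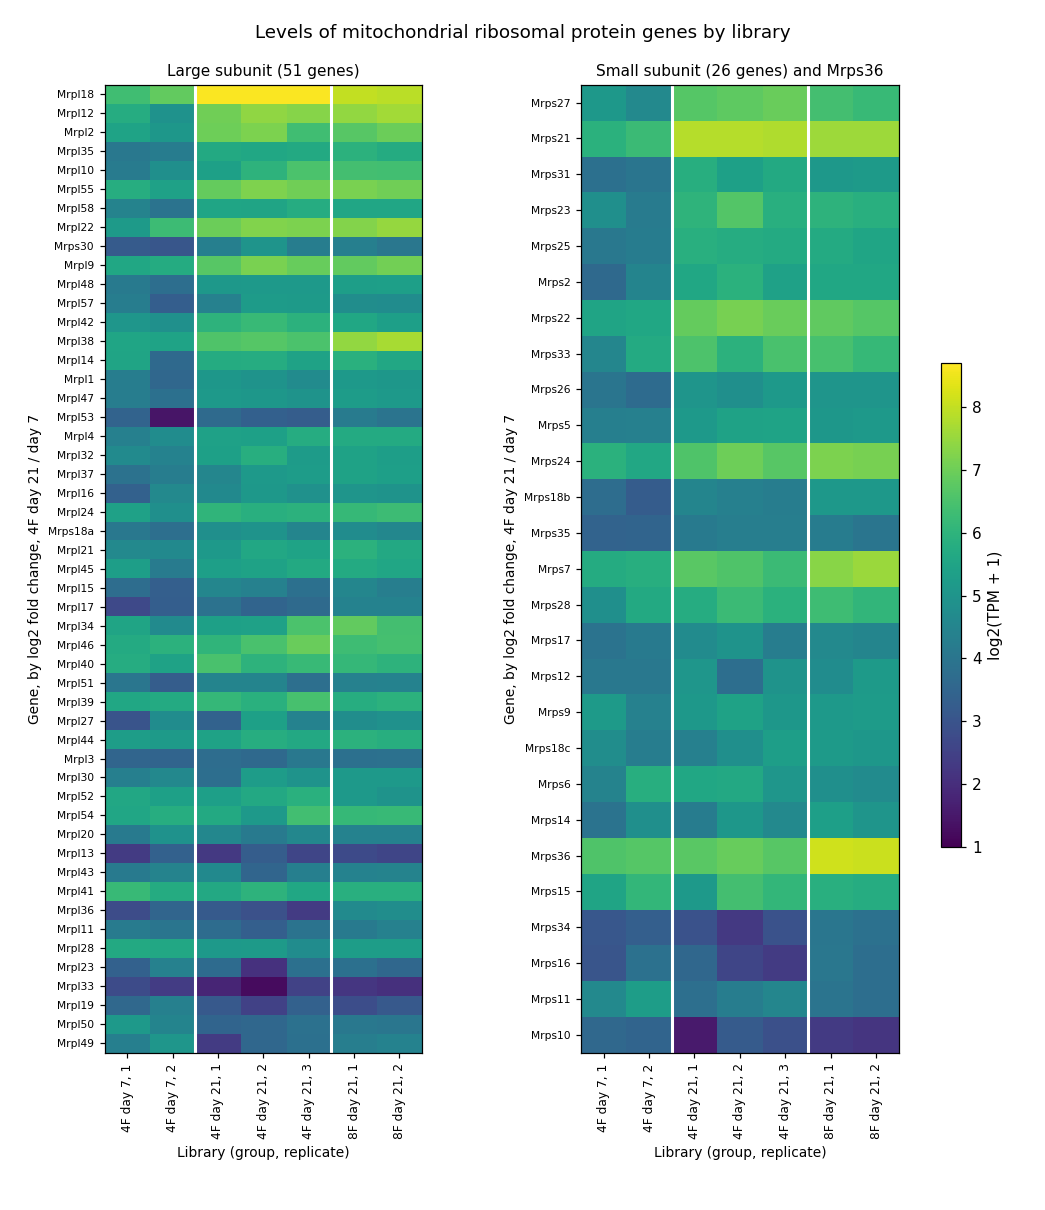
Heat map of log2(TPM + 1) for each gene (rows) in the 7 libraries (columns, grouped by white lines into 4F day 7, 4F day 21 and 8F day 21), with the large subunit on the left and the small subunit with Mrps36 on the right, ordered by the fold change between days in 4F. The upper rows brighten from day 7 to day 21, Mrpl18 is brightest in 4F at day 21 (405, 398 and 402 TPM), and Mrps36 and Mrpl38 are brightest in 8F.

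The first comparison asked how the transcripts changed while 4F-mini-oocytes went from day 7, when their round shape appears, to day 21. Transcripts of the mitochondrial ribosome increased. The 78 genes summed to 2166 and 2254 TPM at day 7 and to 3945, 4383 and 4254 TPM at day 21, with no overlap, and the median gene went from 19.3 and 21.2 TPM to 34.6, 40.2 and 38.3. Of the 78 genes, 37 rose (47.4%) and 2 fell (2.56%) past the threshold, while 25.3% and 15.3% of all 21780 genes tested did so. The median log2 fold change was 0.74 for the members and 0.17 for all genes tested. Every day 21 library was above both day 7 libraries for 48 members (61.5%, against 33.8% of all genes), and below both for 8 (10.3%, against 22.9%).

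The number of calls depended on the scale. After median-of-ratios rescaling 26 rose and 6 fell, after quantile normalization 25 and 6, and with voom on estimated reads 18 and 8. In the same order, 8743 of 21635, 8355 of 21780 and 8675 of 21232 genes tested were called. Rises made up 48.3%, 52% and 37.7% of these calls, against 62.3% of 8847 calls in the main fit. Meanwhile the median of all genes moved from 0.17 to -0.07, 0.04 and -0.32. The median of the members exceeded that of all genes by 0.36 to 0.74 in the main and every other setting. Markers of another cell type moved with the day: 8 trophoblast markers summed to 1135 and 1618 TPM at day 7 and to 54.0, 148.5 and 70.8 TPM in 4F at day 21, and 4 of the 6 tested (Gata3, Hand1, Krt8 and Krt18) fell, while 2 of the 8 were at 0 in every 4F library. The 10 proliferation genes all rose, from a sum of 456 and 528 TPM to 1371, 1326 and 1339 TPM, and the 8 pluripotency markers went from 85.8 and 96.9 TPM to 245.5, 243 and 360 TPM, with Esrrb and Pou5f1 rising and Zfp42 falling among the 6 tested. Their part in the results was not tested, and in pools of cells fewer cells of a type and less RNA per cell cannot be told apart.

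Genes for cytosolic ribosomal proteins went the other way. Of 87 tested, 80 fell and 2 rose between day 7 and day 21 in 4F, with a median log2 fold change of -1.59. Of all genes tested 15.3% fell and 25.3% rose. Their direction was the same after median-of-ratios rescaling (81 fell), after quantile normalization (82 fell) and with voom (82 fell). Their summed level dropped from 42286 ± 1933 TPM (SD, n = 2) to 13975 ± 782 (n = 3). Mitochondrial ribosomal protein transcripts thus amounted to 5.0 and 5.5 TPM per 100 TPM of cytosolic ones at day 7 and to 29.7, 29.6 and 30.8 per 100 at day 21 in 4F. In 8F the value was 22.4 and 24.3, between the other groups. There 34 of 87 cytosolic genes rose and 2 fell against 4F at day 21, while 3.95% and 4.41% of all genes tested did so.

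**Figure D3:**
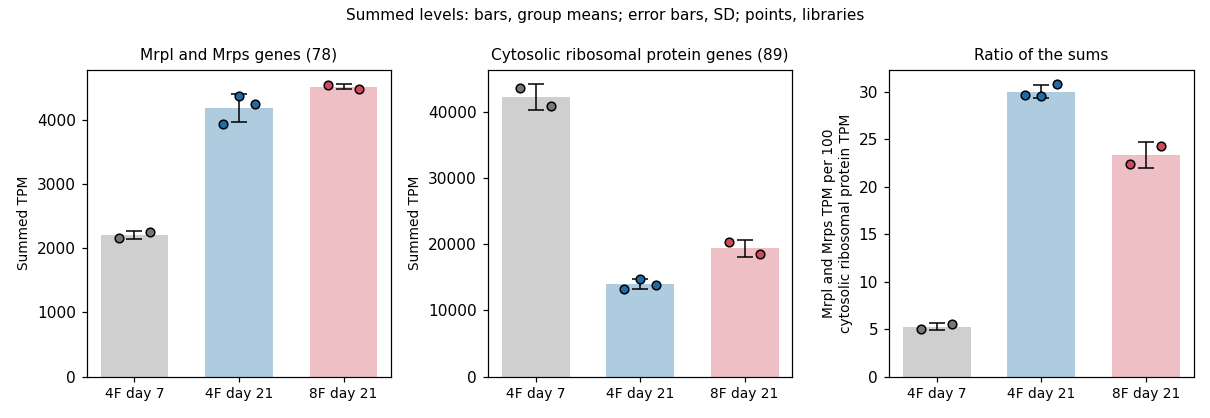
Summed TPM of the 78 Mrpl and Mrps genes (left) and of 89 genes for cytosolic ribosomal proteins (middle), and the first sum per 100 TPM of the second (right), in 4F at day 7 (n = 2), 4F at day 21 (n = 3) and 8F at day 21 (n = 2); bars are means, error bars SD and points libraries. The left bars go up from 2210 to 4194 and 4526 TPM while the middle bars go down from 42286 to 13975 and 19405 TPM.

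The largest rise was that of Mrpl18 (chr17:12911349-12916345, minus strand). It went from 80.7 and 115 TPM at day 7 to 405, 398 and 402 TPM at day 21, a log2 fold change of 2.05 ± 0.15 (adjusted p = 0.000193, limma with Benjamini-Hochberg adjustment). The 3 day 21 libraries were nearly equal and far above the day 7 pair. Mrpl18 alone thereby went from 3.72% and 5.12% of the summed level of the 78 genes to 10.28%, 9.09% and 9.45%.

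Mrps27, a small-subunit protein of the pentatricopeptide repeat family that is found only in mitochondria (chr13:99344786-99415562, plus strand), followed. It was at 33.4 and 23.6 TPM at day 7 and at 102, 109 and 121 TPM at day 21, a change of 1.94 ± 0.17 on the log2 scale (adjusted p = 0.000352, limma with Benjamini-Hochberg adjustment). A non-coding gene shares 24.2% of its exon bases. Mrpl12 (chr11:120484613-120489065, plus strand) forms the flexible stalk that recruits translation factors. It was at 53.4 and 29.4 TPM at day 7 and at 129, 169 and 157 TPM at day 21 (1.90 ± 0.25, adjusted p = 0.00164 by the same limma test with Benjamini-Hochberg adjustment). For both genes the lowest day 21 library was more than 2 times the highest day 7 library.

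Mrps21, the mitochondrial form of bacterial S21, was the second most abundant member in 4F at day 21. Its level was 59.3 and 74.4 TPM at day 7 and 229, 229.9 and 219 TPM in 4F at day 21 (1.75 ± 0.12, adjusted p = 0.000132, limma with Benjamini-Hochberg adjustment). Further rises above 1.5 on the log2 scale were those of Mrps31 (1.71), Mrps23 (1.66), Mrps25 (1.62), Mrps2 (1.58) and Mrpl2 (1.56). Mrps31, Mrps23 and Mrps25 are found only in mitochondria, whereas Mrps2 and Mrpl2 have bacterial counterparts. For Mrps25, 69.8% of the exon bases are shared with Nr2c2, and its reads cannot be fully separated from those of this neighbour. The rises of Mrpl18, Mrps27, Mrpl12, Mrps21, Mrps31, Mrps23, Mrps25 and Mrps2 passed in every other setting, with lowest values of 1.47, 1.46, 1.35, 1.13, 1.24, 1.2, 1.14 and 1.06 in this order.

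By subunit, 14 of 26 small-subunit genes rose (53.8%) and none fell (median 0.76 in limma, with 1 lower at an unadjusted p under 0.05). Of the 51 large-subunit genes 23 rose (45.1%) and 2 fell (median 0.74). Among all members 47.4% rose and 2.56% fell, and among all genes tested 25.3% and 15.3%. Under voom 8 small-subunit genes rose and 2 fell, and 10 large-subunit genes rose and 6 fell. Rises made up 37.7% of all calls under voom. Proteins of the mitochondrial ribosome either have bacterial counterparts or were added in the mitochondrial lineage. Among the 9 small-subunit genes of the second kind, 8 rose (Mrps22, Mrps23, Mrps25, Mrps26, Mrps27, Mrps31, Mrps33 and Mrps35), with a median of 1.45, and 6 of these 9 still rose with voom. Mrps34 was the ninth, at 7.57 and 9.03 TPM at day 7 and 6.67, 3.85 and 6.62 TPM at day 21, and 77.8% of its exon bases are shared with other genes. Among the 17 small-subunit genes with bacterial counterparts 6 rose, with a median of 0.51, and the median was 0.02 with voom. The difference between these lists was not tested.

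In the large subunit, 15 of 31 genes with bacterial counterparts rose and Mrpl28 fell, and 8 of 20 without them rose and Mrpl50 fell. Beside these and the following counts stand 47.4% of all members rising and 2.56% falling, and 25.3% and 15.3% of all genes tested. Whether any of these lists differed from the other members was not tested. The central protuberance, which in mammals holds a transfer RNA in place of the 5S RNA, had 6 of its 9 genes rising (Mrpl18, Mrpl38, Mrpl40, Mrpl48, Mrpl55 and Mrpl58) and none falling, also at an unadjusted p under 0.05 in limma. Both proteins of the L1 stalk, Mrpl1 and Mrpl9, rose, by 1.01 and 1.25 on the log2 scale. Around the exit of the nascent chain 3 of 6 rose (Mrpl24, Mrpl47 and Mrpl22, the last not after quantile normalization or with voom, at 0.83 and 0.80), along the path of the messenger RNA 4 of 7 (Mrps5, Mrps7, Mrps21 and Mrps24), and in the head of the small subunit 5 of 8. In the stalk that recruits translation factors Mrpl10 and Mrpl12 rose, by 1.45 and 1.90. Mrpl11, at the base of the same stalk, was at 17.6 and 15 TPM at day 7 and at 12.3, 9.05 and 14.4 TPM at day 21 (-0.44 ± 0.26, adjusted p = 0.219, limma with Benjamini-Hochberg adjustment), and all 3 day 21 values lay below both of day 7. Mrpl53 was at 9.84 and 1.70 TPM and at 11.8, 9.32 and 8.60 TPM, overlapping groups, and it shares 88.0% of its exon bases with Gm42688. With voom the change of Mrpl10 was 0.89 and did not pass, and without the first day 7 library it was 1.13 (adjusted p = 0.0924 by limma with Benjamini-Hochberg adjustment).

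Mrps18a, Mrps18b and Mrps18c descend from a single bacterial gene, and their proteins occupy different places, Mrps18a in the large subunit and the other two in the small. Mrps30, the other large-subunit protein with a small-subunit name, went from 8.35 and 7.38 TPM to 19.2, 30.8 and 18.0 TPM, a rise of 1.38 ± 0.28 (adjusted p = 0.00894, limma with Benjamini-Hochberg adjustment), with 0.95 under voom, where it did not pass. Mrps18a was at 15.9 and 12.9 TPM at day 7 and at 27.4, 29.8 and 21.5 TPM in 4F at day 21 (0.82 ± 0.21, adjusted p = 0.0209, limma with Benjamini-Hochberg adjustment). Mrps18b went from 12.4 and 8.43 TPM to 21.7, 19.3 and 18.4 TPM (0.88 ± 0.21, adjusted p = 0.0167 in the same limma fit with Benjamini-Hochberg adjustment). Mrps18c was at 26.3 and 18.2 TPM and at 19.3, 27.6 and 39.0 TPM, groups that overlapped. The call of Mrps18a was lost without the second day 7 library or without the first or second 4F library of day 21 (adjusted p = 0.0935, 0.054 and 0.0512 in limma with Benjamini-Hochberg adjustment), and that of Mrps18b without the second day 7 library (0.0672). Neither passed after median-of-ratios rescaling (0.49 for Mrps18a and 0.56 for Mrps18b) or with voom (0.35 and 0.45).

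Mrpl50 and Mrpl28 fell. Mrpl50, a large-subunit protein found only in mitochondria (chr4:49512596-49521093, minus strand), was at 35.1 and 21.3 TPM at day 7 and at 10.1, 10.8 and 13.5 TPM in 4F at day 21 (-1.20 ± 0.27, adjusted p = 0.0125, limma with Benjamini-Hochberg adjustment). Mrpl28 (chr17:26123500-26126613, plus strand) was at 49.7 and 47.9 TPM and at 35.3, 36.0 and 25.7 TPM (-0.59 ± 0.18, adjusted p = 0.0365 in limma with Benjamini-Hochberg adjustment). Neither group pair overlapped. Without the first day 7 library both calls were lost (adjusted p = 0.0692 and 0.124, limma with Benjamini-Hochberg adjustment), and that of Mrpl28 was also lost without the second (0.0962) or without either 8F library (0.0732 and 0.0734). The lowest estimate belonged to Mrpl49, at 19.1 and 32.2 TPM and at 4.10, 10.8 and 13.3 TPM (-1.44 ± 0.48), just short of the threshold (adjusted p = 0.0506 by limma with Benjamini-Hochberg adjustment).

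**Figure D4:**
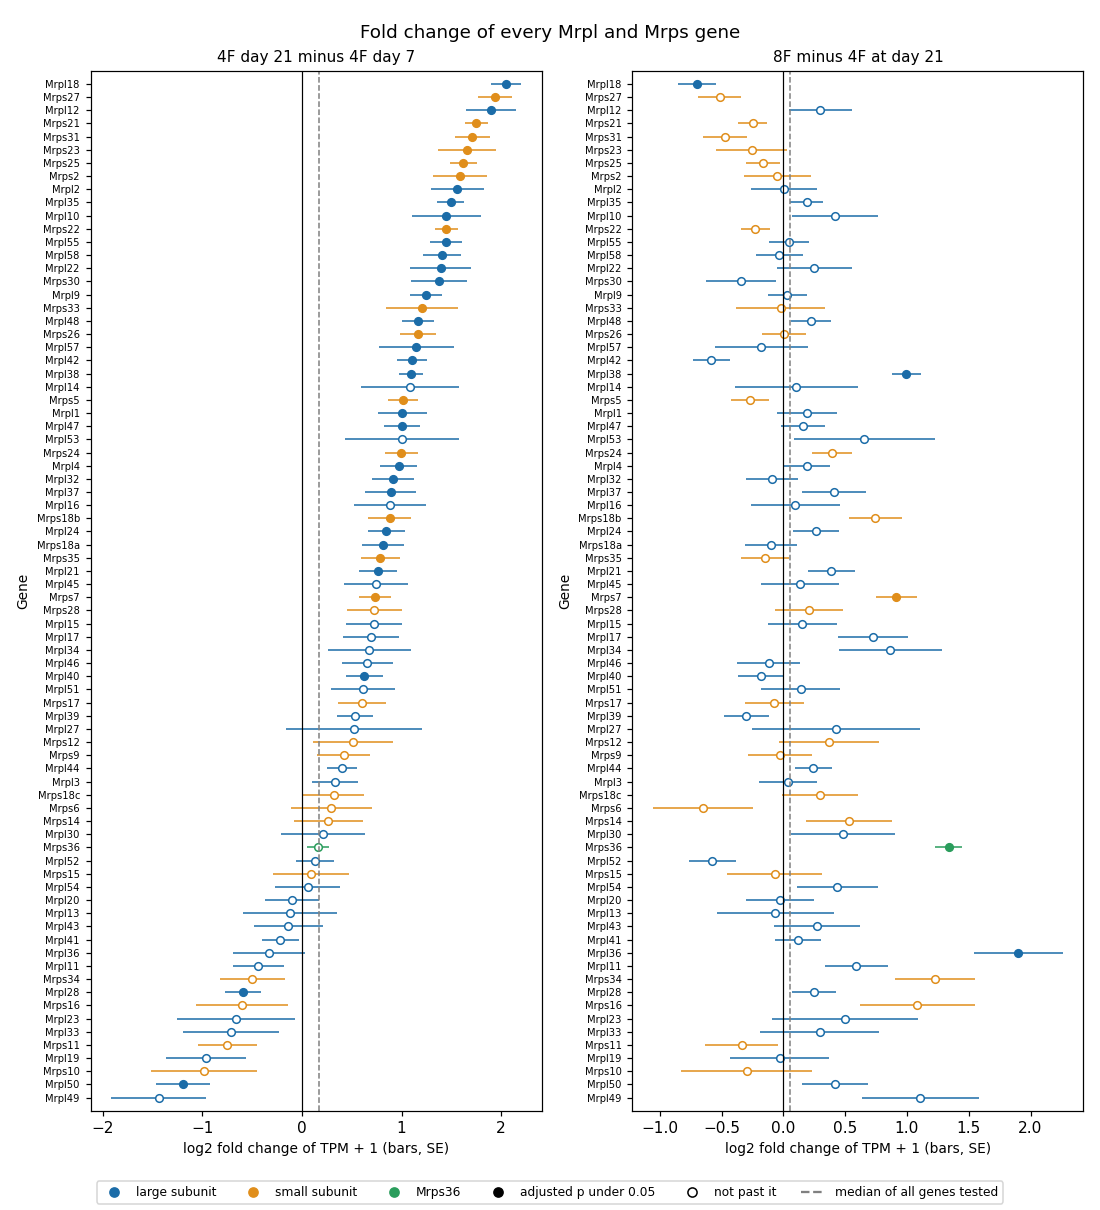
Log2 fold change (horizontal axis, bars are SE) of each of the 78 genes in 4F between days (left) and between 8F and 4F at day 21 (right), in the same vertical order; filled points passed an adjusted p of 0.05, blue is the large subunit, orange the small subunit and green Mrps36, and the dashed line is the median of all genes tested. On the left 37 filled points lie above 0 and 2 below; on the right 4 lie above and 1 below.

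Other proteins of mitochondrial translation were counted in the same comparison. Of the 5 proteins of the particle with other names, Gadd45gip1 rose from 18.8 and 27.1 TPM to 126, 109.7 and 109 TPM (2.30 ± 0.18, adjusted p = 0.000209, limma with Benjamini-Hochberg adjustment), and Dap3, a GTP-binding protein of the small subunit, rose by 0.53 ± 0.17 (adjusted p = 0.0424 in limma with Benjamini-Hochberg adjustment). The call of Dap3 was lost when any 1 of 6 libraries was left out, with an adjusted p of up to 0.176 (limma with Benjamini-Hochberg adjustment) without the first day 7 library, and its change was 0.20, 0.23 and 0.01 after median-of-ratios rescaling, quantile normalization and voom. Ptcd3, Aurkaip1 and Chchd1 did not pass the threshold (0.55, 0.60 and -0.11).

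Of 15 factors that start, extend, end or support mitochondrial translation, 4 rose and none fell. This share of rises is close to the 25.3% of all genes, of which 15.3% fell. At an unadjusted p under 0.05 in limma 10 factors were higher and 0 lower, a threshold at which all genes were not counted. With voom 1 factor rose and 2 fell. Over all genes voom called 8675 of 21232, and 37.7% of these calls were rises. Mtif3, an initiation factor, went from 15.7 and 20.9 TPM to 91.1, 102 and 97.8 TPM (2.36 ± 0.15, adjusted p = 0.000114, limma with Benjamini-Hochberg adjustment), and Mrrf and Gfm2, which recycle the ribosome, and Lrpprc, which stabilises mitochondrial messages, rose by 0.90, 0.85 and 0.51. Of 24 assembly factors 5 rose: the helicase Ddx28 (2.22), Rpusd4 (1.84), Mterf4 (1.80), Fastkd2 (1.16) and Tfb1m (0.70), a share below that of all genes, and with voom 3 rose and 5 fell. Among 20 genes that charge mitochondrial transfer RNAs none rose, also at an unadjusted p under 0.05, and Hars2, the histidyl enzyme, fell (-1.55 ± 0.36, adjusted p = 0.0136, limma with Benjamini-Hochberg adjustment). Hars2 was no longer called without the first or the second day 7 library (adjusted p = 0.0544 and 0.0612, limma with Benjamini-Hochberg adjustment). Under voom 8 of these 20 fell.

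In women, rare variants in several genes of mitochondrial translation are known to be linked to ovarian insufficiency. Of 9 such genes, Mrps22 and Mrps7 rose, Mrpl50 and Hars2 fell, and Lars2, Aars2, Eral1, Rmnd1 and Clpp did not pass the threshold. With 2 of 9 in each direction, these shares stand beside 25.3% and 15.3% of all genes. The rise of Mrps7 between days was 0.40, 0.14 and 0.22 after median-of-ratios, quantile and voom scaling, none of which passed, and it was also lost without the first day 7 library (adjusted p = 0.054, limma with Benjamini-Hochberg adjustment). Mrps22 (chr9:98588730-98601660, minus strand) was at 43.8 and 46.6 TPM at day 7, at 117, 137 and 122 TPM in 4F at day 21 and at 113 and 101 TPM in 8F. Its change between days in 4F was 1.45 ± 0.12 (adjusted p = 0.000255, limma with Benjamini-Hochberg adjustment), with every day 21 library more than 2 times either day 7 library, and the lowest value over the other settings was 0.87, still past the threshold.

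The second comparison set 8F-mini-oocytes against 4F-mini-oocytes at day 21. Here most members did not pass the threshold: 4 rose (5.13%) and 1 fell (1.28%), against 3.95% and 4.41% of all genes tested, and 73 did not pass. The summed level was 4554 and 4498 TPM in 8F and 3945, 4383 and 4254 TPM in 4F. Without Mrps36, which is not ribosomal, the sums were 4270 and 4231 TPM in 8F and 3840, 4263 and 4152 TPM in 4F, and the groups overlapped. The median log2 fold change was 0.14, against 0.06 for all genes. Both 8F libraries were above all 4F libraries for 23 members (29.5%, against 24.1% of all genes) and below for 10 (12.8%, against 19.8%). The 4F and 8F columns were deposited with different numbers of decimals, so a difference in how they were made cannot be told apart from the factors. Nor can a difference between the 4F and 8F cell lines.

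Mrps36 rose the most clearly in 8F (chr13:100735955-100744659, minus strand). It was at 104, 119.8 and 102 TPM in 4F at day 21 and at 284 and 267 TPM in 8F, a log2 fold change of 1.34 ± 0.11 (adjusted p = 0.00299, limma with Benjamini-Hochberg adjustment). At day 7 it was at 94.0 and 99.9 TPM, and its change between days in 4F was 0.16 ± 0.11 (adjusted p = 0.286, limma with Benjamini-Hochberg adjustment), which turned to -0.46 past the threshold after quantile normalization. It had the highest level of all members in both 8F libraries, where it made up 6.24% and 5.95% of their sum, against 2.64%, 2.73% and 2.4% in 4F at day 21. A pseudogene copy that is listed separately, Mrps36-ps1, was at 23.3 and 6.57 TPM at day 7, at 114, 170.4 and 58.1 TPM in 4F at day 21 and at 56.6 and 39.0 TPM in 8F, and how reads divided between the 2 loci was not tested.

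Of the ribosomal members, Mrpl38 rose in 8F from 93.9, 102 and 90.8 TPM to 176 and 208 TPM (1.00 ± 0.12, adjusted p = 0.00778, limma with Benjamini-Hochberg adjustment). It belongs to the central protuberance and lies at chr11:116131817-116138868 on the minus strand. It had been at 45.3 and 43.0 TPM in 4F at day 7, and the groups did not overlap. Mrps7, a protein of the small-subunit head (chr11:115603925-115608036, plus strand), stood at 52.9 and 55.7 TPM at day 7, at 105, 94.9 and 75.4 TPM in 4F at day 21 and at 160 and 186 TPM in 8F. Its change between 8F and 4F was 0.91 ± 0.16 (adjusted p = 0.0234, limma with Benjamini-Hochberg adjustment). Mrpl36, a small zinc-binding protein of the large subunit (chr13:73328513-73332178, plus strand), was at 5.93 and 10.4 TPM at day 7, at 8.09, 6.54 and 4.11 TPM in 4F at day 21 and at 24.5 and 26.2 TPM in 8F. The change between 8F and 4F was 1.90 ± 0.36 (adjusted p = 0.0284, limma with Benjamini-Hochberg adjustment), the largest among the members.

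Mrpl18, which had risen the most between days, was the only member to fall. It was at 256 and 239 TPM in 8F, below its 3 libraries in 4F and above its day 7 libraries, a difference to 4F of -0.70 ± 0.15 (adjusted p = 0.0424, limma with Benjamini-Hochberg adjustment). These calls rest on few libraries. Without the first 8F library none of the 5 passed (adjusted p from 0.0545 for Mrps36 to 0.27 for Mrpl18, limma with Benjamini-Hochberg adjustment), and without the second Mrps36 alone did. Mrpl18 also failed without any single 4F library of day 21 (0.0953 to 0.0995), Mrpl36 without the second (0.0613) or the third (0.0544), and Mrps7 without the second (0.0555). After quantile normalization neither Mrpl18 (adjusted p = 0.052, limma with Benjamini-Hochberg adjustment) nor Mrpl36 (0.056) passed, and Mrpl18 also failed after median-of-ratios rescaling (0.0742).

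Several members showed a separation without passing the threshold. Mrps34 was at 15.2 and 13.6 TPM in 8F and at 6.67, 3.85 and 6.62 TPM in 4F (1.23 ± 0.32, adjusted p = 0.0719, limma with Benjamini-Hochberg adjustment), with reads shared as given above. Mrps18b was at 33.7 and 33.7 TPM, above 21.7, 19.3 and 18.4 TPM (0.74 ± 0.21, adjusted p = 0.0918, limma with Benjamini-Hochberg adjustment), and passed without either day 7 library (0.0477 and 0.0458). For Mrpl9 and Mrpl2, which had risen between days, the difference between 8F and 4F was 0.03 (95% interval -0.35 to 0.42) and 0.01 (-0.63 to 0.64). Among the translation factors Tufm, which delivers transfer RNAs to the ribosome, rose by 0.82 ± 0.19 (adjusted p = 0.047, limma with Benjamini-Hochberg adjustment), and Mtif3 fell by 0.75 (adjusted p = 0.033 by limma with Benjamini-Hochberg adjustment).

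**Figure D5:**
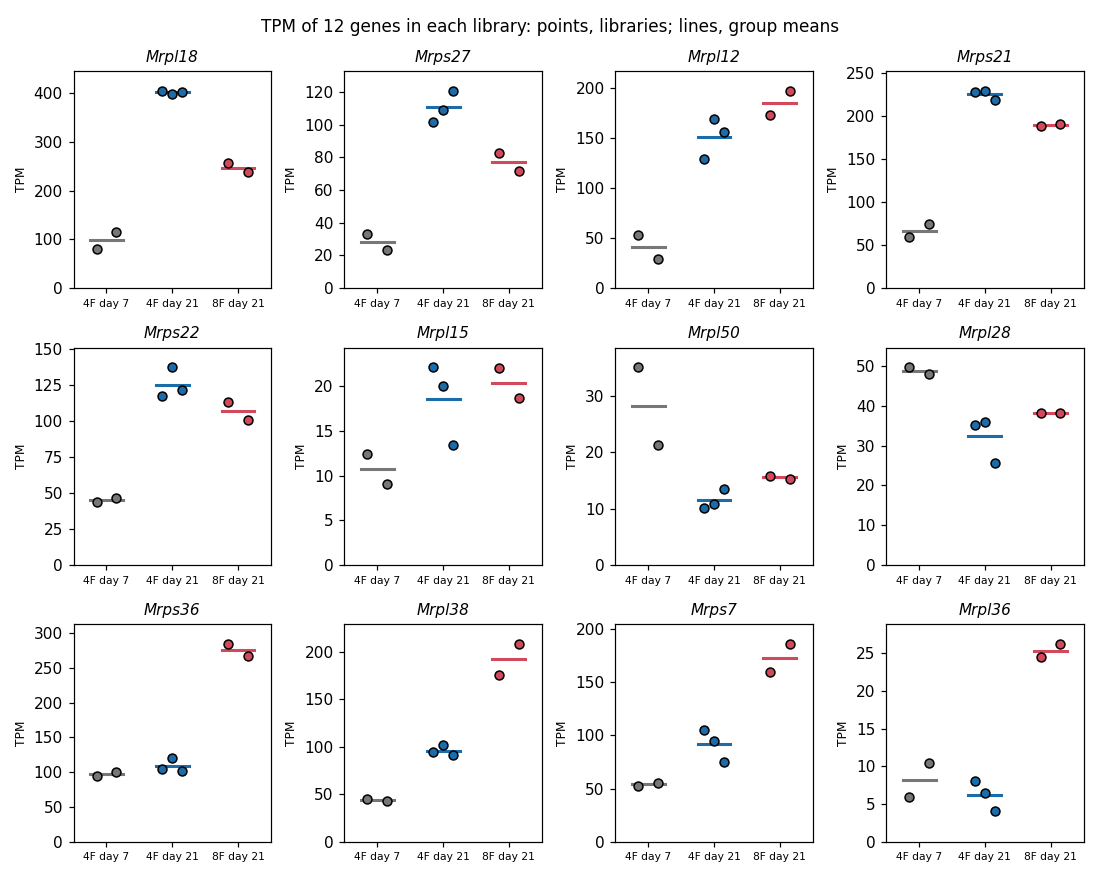
TPM (vertical axis, from 0) of 12 genes in each library of 4F at day 7 (n = 2), 4F at day 21 (n = 3) and 8F at day 21 (n = 2); points are libraries and lines group means. The upper row and Mrps22 rise between days, Mrpl50 and Mrpl28 go down, and in the lowest row both 8F points of Mrps36, Mrpl38, Mrps7 and Mrpl36 lie above all others.

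The third comparison set 8F at day 21 against 4F at day 7 and shares its samples with the other two. In it 38 members rose (48.7%) and 1 fell (1.28%), against 24.2% and 13% of all genes tested, with a median log2 fold change of 0.94, against 0.24. With the filter of at least 5 TPM in 2 libraries the medians were 0.951 for the members and 0.385 for all genes. Without the first or second 8F library 23 or 21 rose and none fell. Mrpl12 led with 2.20 ± 0.28, ahead of Mrpl38 with 2.09 ± 0.13 and Mrpl10 with 1.87 ± 0.38, and Mrpl35, Mrps7, Mrpl22 and Mrps18b followed with 1.68, 1.65, 1.64 and 1.62. Mrpl36 rose by 1.57 and Mrps36 by 1.5, neither of which had passed between days in 4F, and Mrpl18 rose by 1.35. The call of Mrpl36 was lost without the first day 7 library (adjusted p = 0.0878, limma with Benjamini-Hochberg adjustment), without either 8F library (0.113 and 0.131), after median-of-ratios rescaling (0.0518) and with voom (0.094). That of Mrpl10 was lost without either 8F library (adjusted p = 0.0556 in both, limma with Benjamini-Hochberg adjustment), and that of Mrpl22 without the second (0.0624). Mrps11, a protein of the small-subunit platform, fell: it was at 23.8 and 37.7 TPM at day 7 and at 14.5 and 12.6 TPM in 8F (-1.09 ± 0.33, adjusted p = 0.0393, limma with Benjamini-Hochberg adjustment), with 13.02, 18.1 and 22.2 TPM in 4F at day 21. This call was lost without either 8F library (adjusted p = 0.122 and 0.176, limma with Benjamini-Hochberg adjustment), without the second day 7 library (0.161) and without the second 4F library of day 21 (0.0571).

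Promoter letters and neighbours were set beside these changes. Of the 26 members with NRF1, ETS or YY1 letters in a start window, 15 rose and none fell between days in 4F (median 0.89), and of the 43 with a window and none of these letters 19 rose and 2 fell (median 0.73). Of the 33 members with an opposite-strand neighbour, 7 rose together with it (Mrpl48 with Rab6a, Mrps7 with Gga3, Mrpl32 with Psma2, Mrpl57 with Ska3, Mrpl18 with Tcp1, Mrps18b with Ppp1r10 and Mrpl21 with Ighmbp2), and Mrpl50 fell with Zfp189. In no pair did 1 gene rise and the other fall past the threshold. In 9 only the member passed, in 4 only the neighbour and in 12 neither. Over all genes tested 25.3% rose and 15.3% fell. Whether neighbours moved together more often than other genes was not tested.

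Tcp1, a subunit of the cytosolic chaperonin whose start lies 644 bases from that of Mrpl18, followed it in both comparisons. Tcp1 was at 181 and 203 TPM at day 7, at 390, 414 and 388 TPM in 4F at day 21 and at 266 and 265 TPM in 8F, the same order of groups as Mrpl18. The genes share 10.1% of the exon bases of Mrpl18, and no strand option is stated for the counting. Mrps7 and Gga3 likewise both rose between days (0.73, no longer past the threshold under the 3 other scalings given above, and 1.11) and in 8F (0.91 and 0.73), with 6.1% of the exon bases of Mrps7 shared. Ndufs6, a subunit of complex I, starts 29 bases from the outer start of Mrpl36 in GENCODE. The RefSeq start of Mrpl36 whose stretch is printed above lies further inside the gene. These 2 genes did not move together: 8F minus 4F was 1.90 for Mrpl36 and -0.02 for Ndufs6 (adjusted p = 0.98, limma with Benjamini-Hochberg adjustment). Mrpl46 and Mrps11, which start head to head, changed by 0.66 and -0.75 between days in 4F, neither past the threshold.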

How the data were processed

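RNA of pooled mini-oocytes was made into libraries with the SMART-seq Stranded Kit. The authors trimmed reads with Trim Galore!, aligned them with Hisat2 to mm10, removed ribosomal RNA reads with Bedtools, kept unique mappers and counted exon reads with featureCounts on GENCODE vM25, sharing reads between overlapping genes by fractions. No strand option is named, so reads of overlapping genes on opposite strands cannot be told apart. The deposited values are TPM per gene and library; the authors tested counts with edgeR, and counts were not used here. Reads were sequenced on 2 instruments, and no source used here says which library was run on which. TPM within a library are shares of a total, so a gene's value also moves with all others.

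The test covered 21780 of 55364 genes, those reaching 1 TPM in 2 or more libraries. Values entered as log2(TPM + 1), and limma 3.58.1 (R 4.3.3) was run with 1 fit over the 3 groups with a mean-variance trend, two-sided tests and Benjamini-Hochberg adjustment over all genes at 0.05. A fold change is on the log2(TPM + 1) scale, which understates changes of low genes. The code was tested on simulated data with planted changes of 1 or 2 on the log2 scale. It recovered 2 of 100 of the smaller and 64 of 97 of the larger, and 9 unchanged genes were called. A gene that did not pass may therefore still differ, and a call may be false. Reads per library were estimated from the steps of low values, of which 77.7% to 83.8% came out as whole reads within 0.02 of a read. Gene models and shared exon bases came from GENCODE vM21, which matched 98.1% of the listed genes, and start windows from RefSeq (GRCm38.p6). A motif match is exact, on either strand. Named were Mrpl15, the 8 members with the largest changes past the threshold in each direction and comparison, all members past it between 8F and 4F, the 4 highest and 4 lowest members, and those of the S18, stalk, ovarian and other-name lists. Other genes were named after their values were seen. The members and lists were chosen with earlier results of these data known. Alternatives covered the pseudocount, filter, scaling, test, replicate block and each library left out.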

Additional observations from a re-analysis of the deposited data

How the results depend on the processing

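The counts of members past the threshold and the median log2 fold change were recomputed under 21 other settings, 3 of which were chosen after seeing the data (voom with median-of-ratios library sizes, members sharing at most 20% of exon bases, and leaving out Mrps36). For 4F day 21 minus day 7, 18 members rose with voom and 23 with voom on median-of-ratios sizes, against 37. The number that fell was 1 without the filter, without the trend, with array weights or with only the 2 groups compared, 6 after median-of-ratios rescaling, quantile normalization or voom with median-of-ratios sizes, and 8 with voom. The median was 0.639 with a pseudocount of 5, 0.41 and 0.402 after median-of-ratios and quantile scaling, and 0.259 and 0.447 with the 2 forms of voom. The members' median minus that of all genes was 0.571, and 0.48, 0.361 and 0.576 after median-of-ratios, quantile and voom scaling. The share of calls that were rises went from 62.3% of all calls to 48.3%, 52% and 37.7% (median-of-ratios, quantile, voom). With 1 library left out, 32 to 37 rose, 0 to 3 fell, and the median was 0.691 to 0.817.

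For 8F minus 4F at day 21, none fell without the filter, after median-of-ratios or quantile scaling, without the trend or with the replicate block, and 3 fell with array weights. The median was 0.284 with voom. Leaving out 1 library gave 0 to 5 rises, 0 to 1 falls and a median of 0.0769 to 0.154. For 8F at day 21 minus 4F at day 7, none fell without the filter or the trend, 4 fell with median-of-ratios scaling and with both forms of voom, and 5 with quantile normalization. The median was 0.782 (pseudocount 5), 0.627 (median-of-ratios), 0.704 (quantile), 0.571 (voom) and 0.63 (voom, median-of-ratios sizes). With 1 library left out, 21 to 38 rose, 0 to 2 fell and the median was 0.843 to 0.985. The cause of these changes was not tested. Among the single genes, Mrps36 changed direction once, to -0.457 between days in 4F after quantile normalization (adjusted p = 0.019, limma with Benjamini-Hochberg adjustment).

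Replicate numbers are shared between groups, and the deviations of same-numbered samples correlated at -0.037 to 0.011, which shows no sign of pairing. In a group of 2 libraries the deviations mirror each other, so these values cannot exclude a shared origin. With the replicate block 33 members rose and 2 fell between days in 4F (median 0.779), 1 rose and 0 fell in 8F minus 4F (0.106), and 33 rose and 1 fell in 8F minus day 7 (0.941).

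Depth limits the low members: 3 reads on a gene of 1 kb correspond to 0.515 to 0.764 TPM, which covers counting error only.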

Other observations

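Of the lowest members, Mrpl33 was at 5.81 and 4.13 TPM in 4F at day 7, at 2.49, 1.34 and 4.75 TPM in 4F at day 21 and at 3.62 and 3.22 TPM in 8F. Mrps10 was at 11.04 and 10.1 TPM, at 1.95, 8.18 and 6.33 TPM, and at 3.94 and 3.57 TPM in the same order.

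Exon bases were shared with another gene by 33 of the 78 members, by more than 20% of their own bases in 10 and by more than 50% in 3 (Mrpl53, Mrps34 and Mrps25). When members sharing more than 20% were left out, 32 of 68 rose between days in 4F. Besides Mrps36-ps1, the copy Mrps36-ps2 had no reads listed at day 7 and 0.39 to 4.3 TPM at day 21, and Mrps36-ps3 at 0 in all libraries.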
